A study of Mus musculus with 4 samples.

Results

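Of 97739 autosomal peaks in the E10.5 ATAC-seq list of the mouse limb, 8355 (8.55%) were intergenic peaks near genes that also had a counterpart in the E11.5 list. They were chosen by position and by overlap. Each lay outside every protein-coding gene body, more than 1 kb and at most 250 kb from the nearest protein-coding start site, and overlapped an E11.5 peak by at least 1 bp. These 8355 shared intergenic peaks came from 34235 E10.5 peaks that met the position limits, so 24.4% (95% Wilson interval 24 to 24.9%) of such peaks were shared. Over all autosomal E10.5 peaks the share was 32.0%. It was 85.8% within 1 kb of a start site, 22.3% in gene bodies and 24.9% in intergenic peaks beyond 250 kb. Because overlap was part of the choice, the shares and signal values given here are descriptions of the lists. The E11.5 peaks that overlapped them numbered 8828, 24.3% of the autosomal E11.5 list of 36384.

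The samples were wild-type fore- and hindlimbs, pooled as 1 tissue label, of mouse embryos, of embryonic day (E) stages E10.5 and E11.5, with 2 replicates each. Both stages carry the same genotype and no treatment is labelled. The protocol text calls the earlier stage E10, and the sample titles were followed. The series concerns the timing of En1 expression, a homeobox gene of the ventral limb ectoderm, and the stages were set side by side to see which regions are accessible at each.

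ATAC-seq uses the Tn5 transposase, which inserts adaptors into DNA that is not covered by nucleosomes, so a peak marks open chromatin. Open sites at promoters are often shared by many tissues, whereas those between genes include enhancers, which raise transcription of a gene at a distance, insulators bound by CTCF, and the promoters of non-coding RNAs. In the limb bud, distant enhancers are known to drive genes such as Shh, Hand2 and Sox9 in restricted domains of the mesenchyme.

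Each stage was deposited as 1 list that joins both replicates. Replicate spread, sample depth and a test of stage are therefore out of reach, and the intervals given cover counting error only and treat neighbouring peaks as independent. The label was checked against the promoters of listed markers. A peak lay within 1 kb of the start of 36 of 36 limb transcription factors at E10.5 and of 33 of 36 at E11.5, where Tbx5, Pitx1 and Hoxd11 had none. For limb signalling genes the counts were 32 and 25 of 33. Promoter peaks were not particular to limb genes: regulators of other organs had one in 18 of 24 at E10.5 and 10 of 24 at E11.5. Broadly expressed genes had one in 22 of 23 at E10.5 and 21 of 23 at E11.5. The share over all protein-coding genes is not given here. Promoters of listed markers of other cell types had peaks too. At E10.5 these were 11 of 12 ectoderm genes, 8 of 11 endothelial genes and 5 of 9 blood genes. Likewise 8 of 8 muscle precursor genes, 7 of 8 nerve and glia genes and 7 of 8 cartilage genes had a promoter peak. At E11.5 these counts were 6, 6, 5, 4, 6 and 4. The share of each cell type in the tissue was not tested.

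Some shared intergenic peaks cover short RNA genes, and their sequences are shown first because they are what can be read, letter by letter, at the peaks described further on. From the microRNAs whose hairpins lay wholly inside a shared intergenic peak, 7 are printed as mature RNA from RefSeq (GRCm38.p6, the mm10 assembly), 5′ to 3′, with the seed, bases 2 to 8, in capitals. MicroRNAs pair with messenger RNAs through the seed.
let-7i-5p: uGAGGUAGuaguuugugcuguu
miR-760-3p: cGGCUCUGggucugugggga
miR-210-3p: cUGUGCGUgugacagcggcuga
miR-132-3p: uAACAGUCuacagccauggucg
miR-212-3p: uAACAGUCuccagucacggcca
miR-675-5p: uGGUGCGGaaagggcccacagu
miR-137-3p: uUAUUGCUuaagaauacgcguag

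The seeds of miR-132-3p and miR-212-3p are identical, and their hairpins sat in the same peak. In all, 18 hairpins lay in 16 shared intergenic peaks and gave 31 mature sequences with 30 different seeds.

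Promoter windows of long non-coding RNAs (lncRNAs) were the other sequences that could be read at these peaks. The 4 windows printed were picked, after their values were seen, from the 12 with the highest lower percentile of the 2 lists, to show windows that hold the GGGCGG motif and a tandem repeat that does not. Each runs from 250 bases before to 50 after a RefSeq start (GRCm38.p6) on the strand of the gene. Capitals mark GGGCGG, the core of sites bound by Sp factors, or its reverse complement.
Dleu2 (chr14:61682324-61682623, minus strand): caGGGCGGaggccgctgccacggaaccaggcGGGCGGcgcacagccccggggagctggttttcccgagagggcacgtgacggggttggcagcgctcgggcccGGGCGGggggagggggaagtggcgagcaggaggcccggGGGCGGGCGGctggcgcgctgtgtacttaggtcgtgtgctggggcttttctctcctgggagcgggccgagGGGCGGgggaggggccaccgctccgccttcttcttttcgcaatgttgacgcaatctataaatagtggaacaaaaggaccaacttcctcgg
Mir22hg (chr11:75461289-75461588, plus strand): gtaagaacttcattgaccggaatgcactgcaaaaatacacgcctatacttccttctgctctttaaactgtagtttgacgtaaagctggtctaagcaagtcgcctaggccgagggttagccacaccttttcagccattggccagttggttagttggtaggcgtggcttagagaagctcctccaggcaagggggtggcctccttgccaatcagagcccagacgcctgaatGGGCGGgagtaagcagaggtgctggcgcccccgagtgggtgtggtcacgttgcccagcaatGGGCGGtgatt
Snhg8 (chr3:123508287-123508586, minus strand): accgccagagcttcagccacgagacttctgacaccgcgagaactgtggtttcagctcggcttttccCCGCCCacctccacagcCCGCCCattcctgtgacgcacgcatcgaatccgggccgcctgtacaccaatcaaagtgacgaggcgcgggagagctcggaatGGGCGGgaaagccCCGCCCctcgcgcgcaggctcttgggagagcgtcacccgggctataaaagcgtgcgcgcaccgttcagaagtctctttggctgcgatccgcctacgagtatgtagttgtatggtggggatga
Gm40237 (chr4:118547156-118547455, plus strand): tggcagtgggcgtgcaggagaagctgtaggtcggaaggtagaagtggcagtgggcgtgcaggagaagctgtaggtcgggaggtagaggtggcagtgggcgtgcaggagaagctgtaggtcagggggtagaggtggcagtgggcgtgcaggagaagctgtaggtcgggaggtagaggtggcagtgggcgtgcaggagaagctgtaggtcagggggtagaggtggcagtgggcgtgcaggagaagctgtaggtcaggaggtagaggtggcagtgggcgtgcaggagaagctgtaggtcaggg

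Dleu2 hosts miR-15a and miR-16, Mir22hg hosts miR-22 and Snhg8 hosts a small nucleolar RNA. The window of Dleu2 held 6 matches to GGGCGG and 29 CpG dinucleotides, that of Snhg8 4 and 30, and that of Mir22hg 2 and 12. The Gm40237 window held no match and consists of a short unit repeated in tandem. GC content did not set it apart, at 62.7% against 69% for Dleu2, 62% for Snhg8 and 54.7% for Mir22hg.

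The shared intergenic peaks lay a median of 37855 bp from the nearest start site, with quartiles at 14451 and 92068 bp. Within 10 kb lay 18.1% of them, within 50 kb 58.0% and within 100 kb 77.2%. The 25880 intergenic peaks near genes without an E11.5 counterpart lay somewhat farther out, at a median of 43496 bp, with 16.4%, 54.1% and 74.2% inside the same limits. The share with a counterpart was 26.6% (25 to 28.3%) at 1 to 5 kb and 22.2% (21.3 to 23%) at 100 to 250 kb. The bin at 100 to 250 kb thus lay below that at 1 to 5 kb by more than the counting error. Beyond 250 kb, outside the choice, the share was 24.9% (23.8 to 26%), so it did not keep falling with distance.

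Most lay before the gene rather than beyond it. Upstream of the nearest start were 5307 (63.5%) and downstream, which means past the 3′ end since gene bodies were left out, were 3048 (36.5%). Among peaks without a counterpart 64.9% were upstream. The median distance was 29766 bp upstream and 56412 bp downstream, where the length of the gene itself lies between. The plot of distances shows this offset of the curves.

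**Figure D1:**
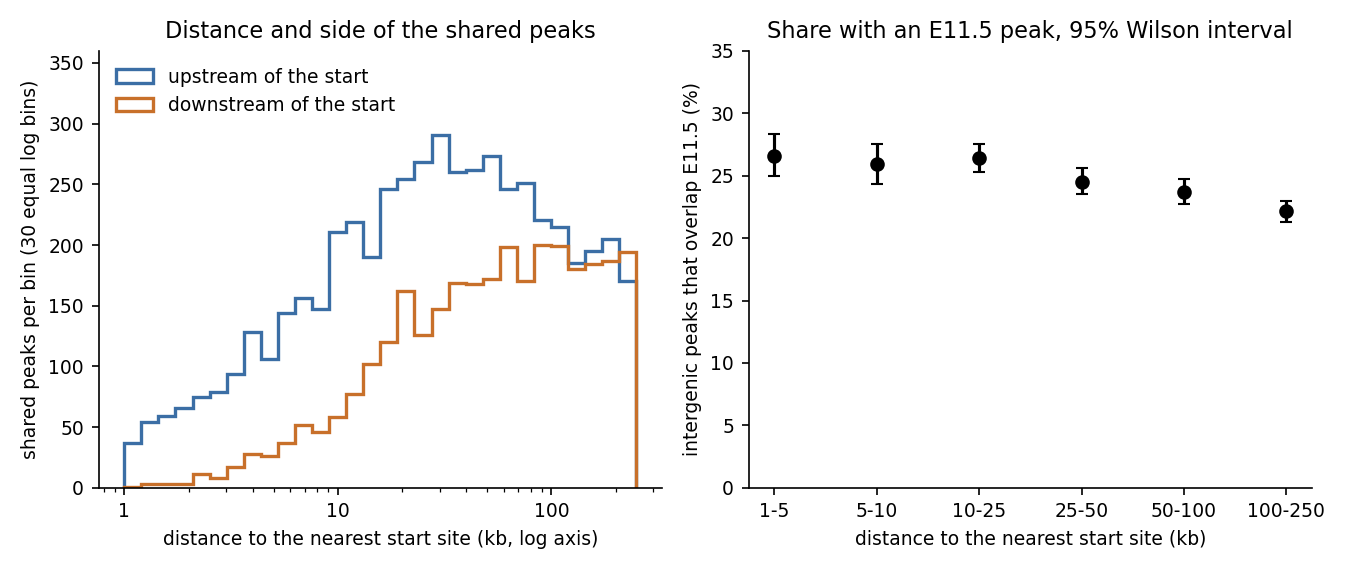
Left, shared intergenic peaks per bin of distance to the nearest protein-coding start site (log axis), upstream and downstream. Right, the share of intergenic E10.5 peaks with an E11.5 counterpart in 6 distance bins with 95% Wilson intervals, from 26.6% at 1 to 5 kb to 22.2% at 100 to 250 kb.

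The peaks were wide at E10.5 and narrow at E11.5. Their median width was 927 bp at E10.5 (quartiles 602 and 1400 bp), against 498 bp for intergenic peaks without a counterpart. The matching E11.5 peaks had a median width of 428 bp (quartiles 256 and 704 bp), and the median ratio of E11.5 to E10.5 width was 0.506. The E11.5 peak was the narrower in 7613 pairs (91.1%) and lay wholly inside the E10.5 peak in 7008 (83.9%). Thus the typical pair was a broad E10.5 peak with a short E11.5 peak within it. A narrower E11.5 peak was not particular to this class. Median widths at E10.5 and E11.5 were 1037 and 467 bp for shared gene-body peaks. They were 760 and 428 bp for shared peaks beyond 250 kb, and 1542 and 1209 bp for those within 1 kb of a start site. Where several E11.5 peaks met 1 E10.5 peak, the one with the longest overlap was used.

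The summits of the pairs lay close together. The median distance between them was 22 bp, and 6958 pairs (83.3%) had summits within 100 bp. In 119 pairs (1.42%) the summits were more than 1000 bp apart. A single E11.5 peak met 7862 of the E10.5 peaks, and 493 (5.9%) met more than 1, with 5 as the most. In the other direction, 44 E11.5 peaks (0.498%) met more than 1 shared intergenic peak. The smallest overlap, 14 bp, was at a peak 1.07 kb upstream of 9430015G10Rik, and 4 overlaps were under 50 bp.

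The deposited signal value grew with width over the 8355 pairs (Spearman's rho 0.88 at E10.5 and 0.79 at E11.5, as a description). It is read here as a total over the peak, which no source used here states, and the values of signal per bp rest on that reading. Positions in each list are therefore given as percentiles, the share of autosomal peaks of that list at or below the peak in signal. The lists differ in length, so a lower percentile at E11.5 does not show a change. The shared intergenic peaks stood at a median percentile of 74.8 in the E10.5 list (quartiles 59 and 85.7) and of 38 in the E11.5 list (quartiles 19.1 and 56.9). Their median signal was 2140 and 482. Peaks without a counterpart stood at a median of 36.3.

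Signal and overlap moved together. With all E10.5 peaks cut into 5 equal bins by signal, in the lowest bin 4.18% of intergenic peaks near genes had a counterpart, in the middle bin 16.7% and in the highest bin 80.1% (78.9 to 81.3%). Gene-body peaks followed with 3.16%, 13.5% and 78.5%. Peaks within 1 kb of a start site gave 14.8%, 41.8% and 99.1%. In each bin the intergenic share near genes lay a little above the gene-body share, and the promoter share above both. In the highest bin the gene-body interval, 77.4 to 79.5%, overlapped that of the intergenic peaks near genes. Intergenic peaks beyond 250 kb gave 5.15%, 20.9% and 81.1% (77.7 to 84.1% in the highest bin). Their share lay above that of intergenic peaks near genes in each bin, with overlapping intervals in the highest.

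Shared peaks of the other position classes were ranked in the same way. Those in gene bodies (9785 peaks) stood at median percentiles of 77.6 and 40.1 with a median E10.5 width of 1037 bp. Shared peaks over 250 kb from any start (1496 peaks) stood at 70.5 and 35.2 with 760 bp. Promoter peaks (11626) stood at 90.1 and 80.7 with 1542 bp. Among all shared pairs only, where both lists have the same number of entries, the intergenic pairs stood at 34.8 at E10.5 and 33.3 at E11.5.

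Few shared intergenic peaks reached the top of the E11.5 list. The top 10% of the E10.5 list held 1313 of them (15.7%) and the top 10% of the E11.5 list 217 (2.6%). Both applied to 157, and 12 were in the top 1% of both lists. The E11.5 percentile exceeded the E10.5 percentile in 752 (9%), against 8.23% of shared gene-body peaks and 17.6% of shared promoter peaks. These shares depend on the set in which percentiles are taken. With percentiles taken among shared pairs only, 3688 of the 8355 (44.1%, 43.1 to 45.2%) stood higher at E11.5. That ranking gives all shared pairs the same mean percentile in both lists by construction. The cause of the difference between 9% and 44.1% was not tested. Across the 8355 pairs Spearman's rho was 0.49 for signal, 0.56 for width and 0.31 for signal per bp, given without a test since pairs share 2 joined libraries and signal contains width. Distance from the start bore almost no relation to signal (rho 0.03 and -0.032).

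**Figure D2:**
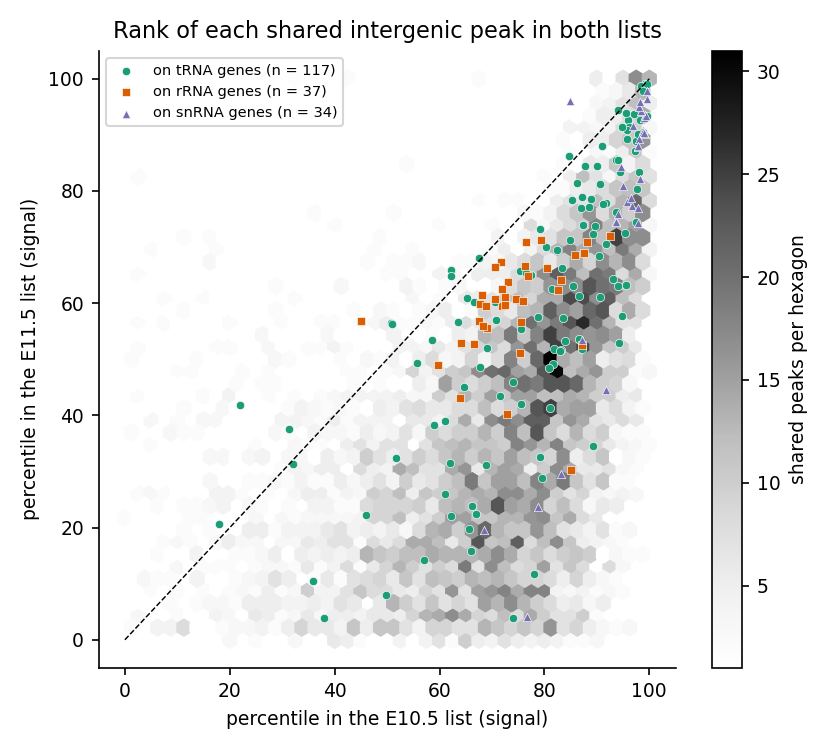
Percentile of each shared intergenic peak by signal in the E10.5 list (x axis) and in the E11.5 list (y axis), with darker hexagons holding more peaks. Coloured points mark peaks on tRNA, rRNA and snRNA genes, and most peaks lie under the dashed line of equal percentile, with medians of 74.8 and 38 in lists of unequal length.

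The peaks on either side of the distance limits had values of the same order. Just inside 1 kb were a peak 1.02 kb upstream of Spryd4 (E10.5 signal 2304, E11.5 signal 757) and one 1.03 kb upstream of Hmx3 (1321 and 316). Just outside, at 982 bp from Vstm2l and 995 bp from Letmd1, the signals were 1564 and 564, and 464 and 245. Near 250 kb the last peaks inside were those of Sec61b (2186 and 376) and Trib2 (886 and 287). The first outside lay 250003 bp from Bmp2 (1637 and 494) and 250087 bp from Gli3 (4189 and 1705), both limb regulators, so their neighbourhoods reach past the limit.

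The strongest shared intergenic peaks were of 2 kinds. One kind, 4 of the 10 strongest, had a very high signal per bp, 8.53 to 36 at E10.5, and nearly equal percentiles in both lists. The peak at chr1:24611490-24616229, nearest to Col19a1 and over the pseudogenes Gm10222 and Gm10925, had an E10.5 signal of 170648 and an E11.5 signal of 180100. The peak at chr17:39842947-39848883, nearest to Esp38 and over the ribosomal RNA pseudogene Rn18s-rs5, had 146712 and 112693. The peak at chr14:19415665-19419748, nearest to Gm2244, had 49891 and 130073, and that at chr17:13550459-13553239, nearest to Tcp10c and over the lncRNA 2700054A10Rik, had 23732 and 20585. Where near-identical copies of a sequence exist, as for ribosomal RNA, the value of a single copy is uncertain. The same limit can apply to the pseudogenes under the peak nearest to Col19a1, so its value need not reflect open chromatin there. This was not tested. Of all shared intergenic peaks 201 (2.41%) were in the top 1% of signal per bp in either list and 54 in both.

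The other 6 were very wide at E10.5, with a signal per bp between 3.1 and 4.92, and had smaller E11.5 counterparts. One 78.8 kb downstream of 1700001O22Rik, 8743 bp wide and over the lncRNAs Gm14488 and Gm39782, had a signal of 29149 at E10.5 but of 1253 at E11.5. The widest of all, 8996 bp, lay 74.6 kb upstream of Atg7, an autophagy gene, with 27923 and 2281 and 5 separate E11.5 peaks inside. A peak 20.6 kb upstream of Ptma, 5177 bp wide, kept a high rank at both stages (25453 and 6727, percentiles 99.95 and 96.8). Peaks near Acot11 (21769 and 5214) and Cstad (21549 and 4110) were of the same form. The narrowest shared peak, 112 bp, lay 102 kb upstream of Eif4enif1 with 299 and 1532.

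The largest differences of percentile were at both ends of the scale. Higher at E10.5 by the most were peaks near Rpl14 (percentile 96.6 against 1.95), Gpr132 (96 against 1.51), Sipa1l2 (97 against 2.58), Cwc22 (98.3 against 5.06) and Mrpl23 (93.8 against 1.03). All 5 were 2666 to 4334 bp wide at E10.5, with E11.5 peaks of 188 to 428 bp. Higher at E11.5 by the most were peaks near Gm40364 (5.64 against 99.9), 9430015G10Rik (6.74 against 96.6), Gm15319 (9.95 against 98.4), Zbtb37 (13.1 against 99.21) and Gm40469 (14.6 against 99.93). In these 5 the E10.5 peak was at most 956 bp wide and met an E11.5 peak of 1582 to 7441 bp. The Zbtb37 peak lay 1.37 kb from that start, over Gas5, a lncRNA that hosts small nucleolar RNAs.

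Although all lie outside protein-coding genes, 2372 of the shared intergenic peaks (28.4%) touched an annotated non-coding gene, against 21.8% of intergenic peaks without a counterpart. LncRNA genes accounted for 1974. Peaks within 1 kb of a lncRNA start had a counterpart in 39.9% (37.6 to 42.3%), whereas peaks in a lncRNA body farther from its start had one in 23.3% (22.3 to 24.4%), close to the 22.8% (22.3 to 23.3%) of peaks on no annotated gene. The 652 shared peaks at lncRNA starts stood at median percentiles of 82.8 and 54.5.

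Short RNA genes stood apart. Transfer RNA (tRNA) genes, which decode messenger RNA and are read by RNA polymerase III, lay under 117 shared peaks, and 81.2% (74.1 to 86.8%) of intergenic peaks on them had a counterpart. For 5S ribosomal RNA (rRNA) genes, also read by polymerase III, these values were 37 and 97.4% (86.5 to 99.5%). For small nuclear RNA (snRNA) genes they were 34 and 91.9% (78.7 to 97.2%). For microRNA genes they were 22 and 61.1% (44.9 to 75.2%). The 3 classes tRNA, rRNA and snRNA together made 85.8% (80.5 to 89.8%), but they are 187 of the 8355 shared peaks.

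**Figure D3:**
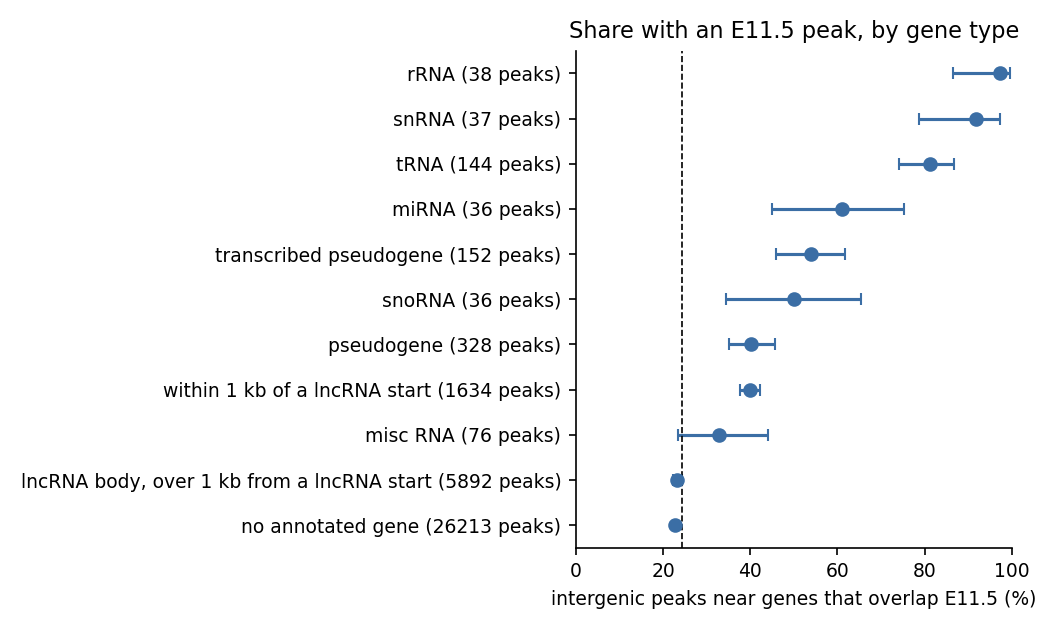
Share of intergenic E10.5 peaks near genes that overlap an E11.5 peak, by the type of annotated non-coding gene they touch, with 95% Wilson intervals and the number of peaks in brackets. The dashed line is the share over all intergenic peaks near genes, 24.4%, and rRNA, snRNA and tRNA genes lie at 97.4%, 91.9% and 81.2%.

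The snRNA peaks were the strongest of these, with a median signal of 9579 at E10.5 (1618 to 14927) and 3730 at E11.5 (216 to 7519) and median percentiles of 97.8 and 86. A run near Eapp on chromosome 12 held 6 of them, over snRNA genes and the pseudogenes Gm2395 and Gm2412. Their E10.5 signals were 9913 to 14927 and their E11.5 signals 4471 to 7519. A further one lay over Rnu2-10, a U2 snRNA gene 5.82 kb upstream of Arl4d, with 14151 and 5249.

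The tRNA peaks had a median signal of 3349 at E10.5 (324 to 15002) and 1266 at E11.5 (216 to 9110), and 46 of the 117 lay on chromosome 13 between 21160758 and 23526904. The strongest, 16.4 kb upstream of Wnt11, held 2 proline tRNA genes and had 15002 and 5284. A pair near Fcgr3 on chromosome 1 had 13325 and 9110, and 13219 and 9046. The 37 rRNA peaks were all in the 5S array on chromosome 8 between 123538266 and 123623198, with a lower signal per bp (median 1.34) than tRNA peaks (2.61) or snRNA peaks (4.71) at E10.5. Near-identical copies of these genes share reads, so values of single copies are uncertain.

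Of the 18 hairpins inside shared intergenic peaks, 9 were also wholly inside the matching E11.5 peak. Mirlet7i, a member of the let-7 family of developmental timing, had signals of 7215 and 6478 and was near the top of both lists (percentiles 95.2 and 96.5). Mir760 shared its peak with an arginine tRNA gene (14320 and 8952). Mir210, known as a hypoxia-responsive microRNA, had 9665 and 5188. The peak with Mir132 and Mir212, 1.28 kb upstream of Hic1, had 5065 and 2533.

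Mir137, best known in neurons, stood higher at E11.5 by a wider margin than Mirlet7i. Its peak, 128 kb upstream of Dpyd, had a signal of 495 at E10.5 and 1261 at E11.5, percentiles 32.8 and 63. Mir675, which is cut from the H19 transcript, had 8012 and 827, and its hairpin lay outside the matching E11.5 peak. Mir203, a microRNA of the epidermis, had 4186 and 868, and its hairpin also lay outside the matching E11.5 peak.

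LncRNA promoter windows could be searched for short motifs on both strands, which the peaks between genes could not for want of an mm10 sequence. Of 453 windows (392 genes) inside a shared intergenic peak, 41.1% held GGGCGG, against 13.9% of 266 windows inside intergenic peaks without a counterpart and 16.3% of all 11311 autosomal lncRNA windows. The median GC content was 55.3%, 52.3% and 48.3%. The CTCF core motif was found in 4.64%, 3.01% and 0.566%. TGANTCA, the AP-1 type site, was found in 30 of 453 windows in shared peaks, in 28 of 266 in peaks without a counterpart, where its share was the highest of these sets, and in 1046 of all 11311. CANNTG, the E-box, gave 74%, 82.7% and 78.3%. GGAATG, the TEAD type site, gave 18.8%, 22.9% and 16.7%, and TTTATNG, a Hox type site, gave 14.1%, 12.4% and 13.3%. Windows of 1 gene can overlap, and a match is not a bound site.

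Dleu2, Mir22hg, Snhg8 and Gm40237, printed above, were high in both lists. The Dleu2 peak had signals of 9647 at E10.5 and 7912 at E11.5. That of Mir22hg had 13511 and 7394, that of Snhg8 8110 and 8661, and that of Gm40237 11234 and 12265. Their percentiles were at least 96.4 in both lists. The peak of Chaserr, a lncRNA 16 kb upstream of the chromatin remodeller gene Chd2, had 8794 and 6098, and that of Lockd, near the cell-cycle inhibitor gene Cdkn1b, had 9469 and 7700.

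The nearest gene of each shared intergenic peak was one of 4566 protein-coding genes, which is 22.4% of the 20364 autosomal genes with a known start. Only 1 peak fell to 2780 of these genes and 2 to 934. There were 245 genes with 5 or more, which together held 20.1% of the peaks, and 26 with 10 or more. The count depends strongly on room. With genes cut into 5 bins by the intergenic sequence nearest to them, 0.54% had a shared peak in the bin with the least and 57% in the bin with the most. Densities are therefore also given per Mb of that sequence, 8.88 per Mb over all genes. They depend on room too, at 11.8, 14.9, 12.2, 11.1 and 7.78 per Mb from the bin with the least to that with the most.

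Shared intergenic peaks lay near many of the listed genes of limb development. Of 36 limb transcription factors 26 (72.2%, 56 to 84.2%) had at least 1, with 102 peaks or 15.6 per Mb. Of 33 limb signalling genes 27 (81.8%, 65.6 to 91.4%) had at least 1, with 94 peaks or 15.8 per Mb. Both shares depend on the rule. They were 47.2% and 57.6% with a 50% reciprocal overlap, 44.4% and 48.5% with a −log10 p of at least 5 in both lists, and 47.2% and 42.4% with the bodies and starts of non-coding genes counted as well. These genes have much room, a median of 146 and 189 kb against 16.8 kb over all genes. The share of their intergenic peaks with an E11.5 counterpart was 19.6% (16.4 to 23.2%) for the factors and 26.8% (22.4 to 31.6%) for the signalling genes, on either side of the 24.4% over all genes.

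**Figure D4:**
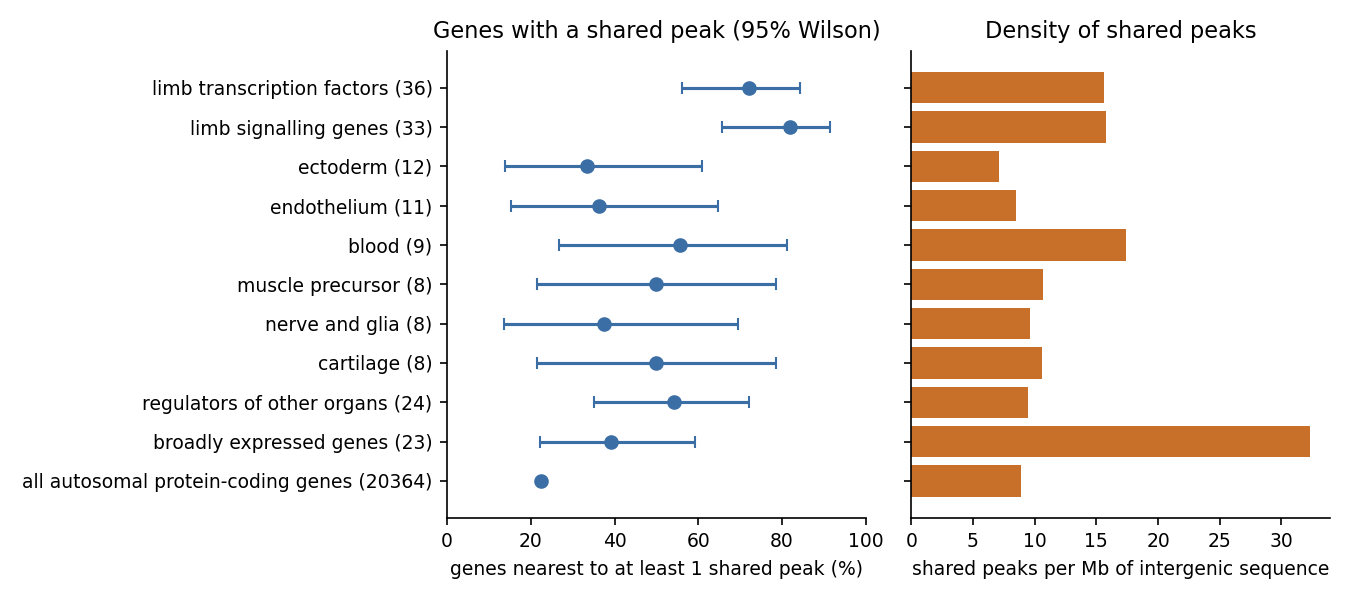
Left, share of the genes of each list that are nearest to at least 1 shared intergenic peak, with 95% Wilson intervals and the number of genes in brackets. Right, shared intergenic peaks per Mb of intergenic sequence assigned to the genes, 15.6 and 15.8 for the limb lists, 8.88 for all genes and 32.3 for broadly expressed genes, which have little such sequence.

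Isl1, a LIM homeobox gene of early hindlimb and of the posterior limb, had the most of the transcription factors, 12 of 17 intergenic peaks near it. They were modest in signal, with E10.5 values of 345 to 2168 and E11.5 values of 297 to 1567. The strongest, 108 kb downstream, had 2168 and 1437. Of the 12, 2 stood at a higher percentile at E11.5, one 117 kb downstream (57 and 67.5) and one 167 kb upstream (20.1 and 26.6).

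Hand2, a basic helix-loop-helix factor of the posterior limb bud that acts upstream of Shh, had 11 of 26. Within 32.3 kb downstream lay 5 of them, and 3 peaks of 3163 to 3573 bp had E10.5 signals of 10490, 9244 and 7988. Their E11.5 signals were 3210, 957 and 1289. The lncRNA genes Hdnr and Gm34030 overlapped part of this cluster, and Hand2os1 lay under 2 peaks upstream (4046 and 1618, 821 and 430). A peak 209 kb upstream was the only one of the 11 with the higher percentile at E11.5 (766 and 1685, percentiles 47.1 and 69).

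En1, the gene the series is about, had 8 of 26, of which 7 lay 41.4 to 193 kb downstream and 1 lay 5.77 kb upstream. The strongest was 138 kb downstream, at chr1:120740706-120742260, with an E10.5 signal of 5523 and an E11.5 signal of 1962 (percentiles 91.6 and 72). The next were 158 kb (3717 and 696), 112 kb (3329 and 350) and 56.9 kb downstream (2094 and 536). Of the downstream peaks 6 lay in the annotated lncRNA gene 2610027F03Rik. All 8 had the lower percentile at E11.5, as did 91% of all shared intergenic peaks in these lists of unequal length. The peak upstream was weak at both stages (410 and 302).

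Sp8, a zinc finger factor of the apical ectodermal ridge, had 8 of 15. The 3 peaks closest to its start were the strongest, with 5174 and 2989 at 8.08 kb downstream, 3243 and 2279 at 8.84 kb upstream, and 2039 and 1394 at 2.85 kb upstream. At E11.5 they kept percentiles of 65.2 to 80.9. Sox9, the regulator of cartilage formation, had 7 of 36 in a wide desert, between 219 kb upstream and 231 kb downstream. The outermost downstream peak was the strongest (9616 and 1291), and a peak 160 kb upstream stood low in the E11.5 list (3283 and 262, percentiles 83.1 and 13.2).

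**Figure D5:**
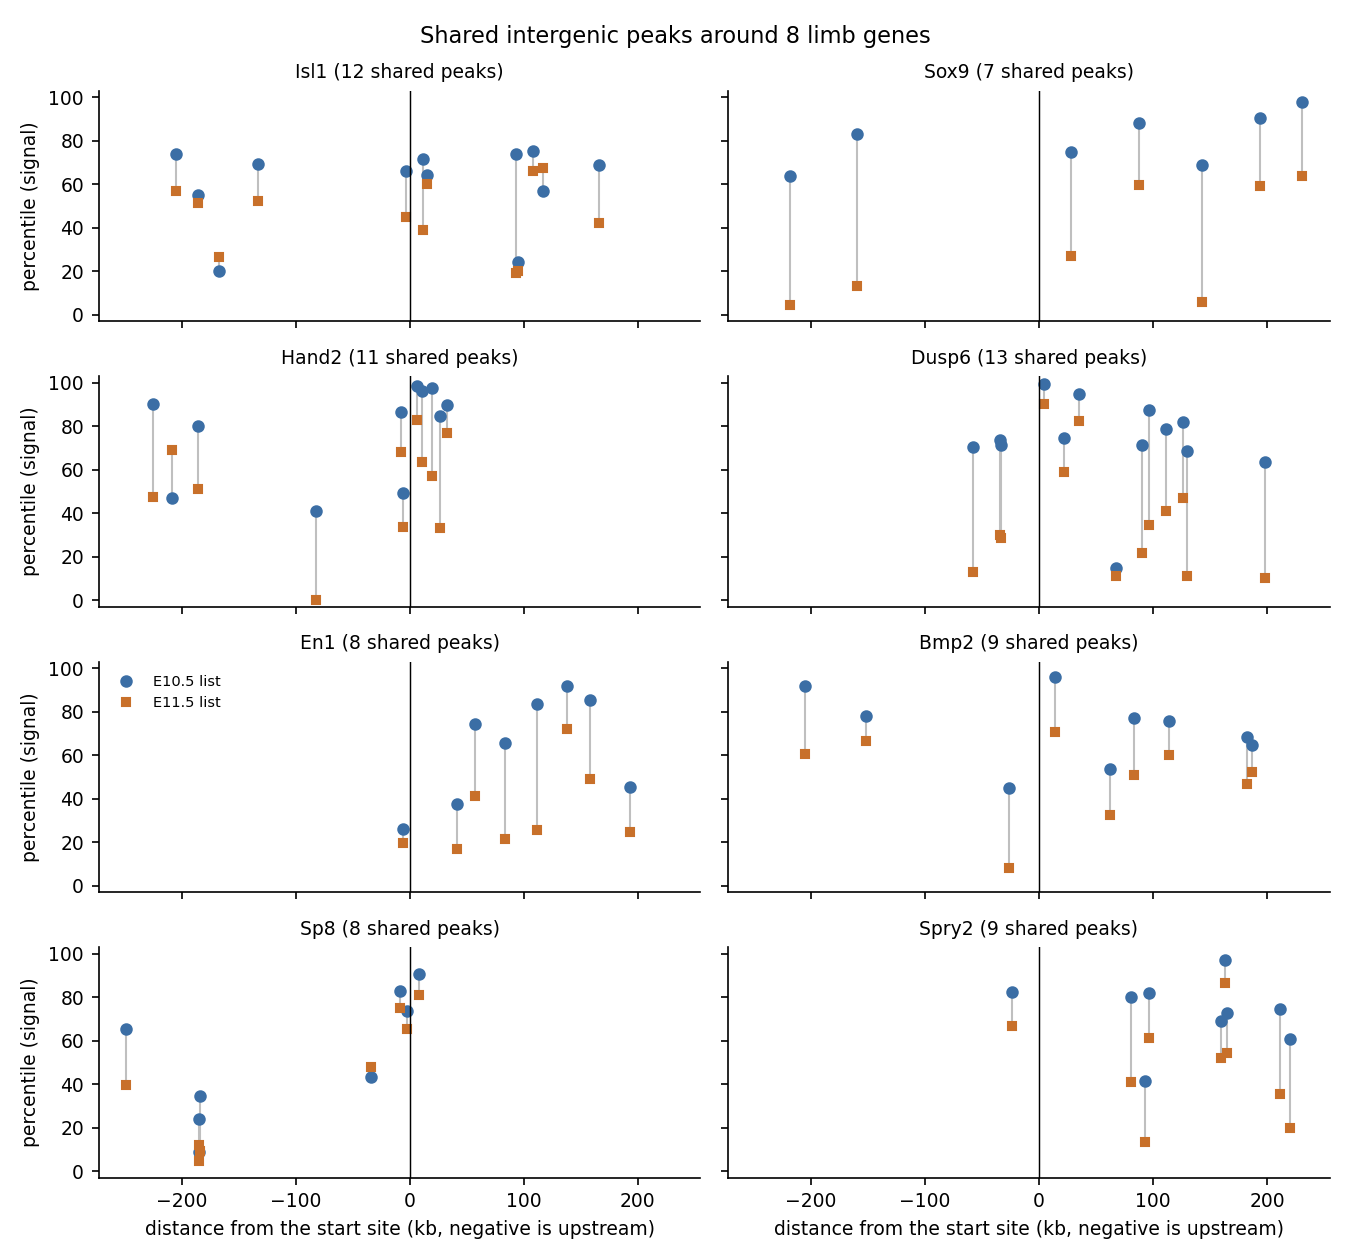
Percentile by signal in the E10.5 list (circles) and in the E11.5 list (squares) of the shared intergenic peaks around 8 limb genes, against the distance in kb from the start site on the strand of the gene. Each grey line joins the values of 1 peak, and for En1 all 8 circles lie above their squares, as for 91% of all shared intergenic peaks.

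Other limb factors had fewer. Gli3, the repressor arm of Hedgehog signalling, had 5 of 8, Meis2 5 of 10 and Tbx4, the hindlimb T-box gene, 5 of 18. Lmx1b, which specifies the dorsal limb, had 3 of 16, with E10.5 signals of 9888 to 12614 and a median E11.5 percentile of 16.1. None fell to 10 of the 36 factors. Among them were Tbx3 with 37 intergenic peaks near it and Tbx5 with 10, none with a counterpart, and Hoxa11, Hoxd11 and Shox2, which had no intergenic peak to count.

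Dusp6, an inhibitor of FGF-driven ERK signalling, had 13 of 31, the most of the signalling genes. The strongest lay 4.28 kb downstream of the start, just past the gene, with an E10.5 signal of 13925 and an E11.5 signal of 4445 (percentiles 99.4 and 90.1). The next was 35.2 kb downstream with 7074 and 3193. All 13 had the lower percentile at E11.5, against 91% of all shared intergenic peaks. Spry2, another FGF feedback inhibitor, had 9 of 16, led by a peak 163 kb downstream (8746 and 3800).

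Bmp2, a ligand of the BMP pathway, had 9 of 28, between 205 kb upstream and 187 kb downstream, led by one 13.6 kb downstream (7705 and 1837). Fgfr2, a receptor of FGF ligands, had 5 of 23. Jag1, a Notch ligand, had 5 of 7, all upstream, of which the one 131 kb away had 3754 and 1847. Lef1, a Wnt effector, had 5 of 18 and Rspo3, a Wnt amplifier, 5 of 11.

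The ligands of the signalling centres had few. Shh, the posterior signal, had 1 of 2 (1608 and 242, 2.46 kb away), Fgf8, of the apical ridge, 1 of 3 (4164 and 275) and Wnt7a, the dorsal signal, 1 of 9 (2364 and 2080). Fgf10, the mesenchymal signal, had 2 of 8. Axin2, a target of Wnt signalling, had 3 of 21, one of them with an E11.5 signal of 7354. Dkk1, Fgf4, Gli1, Grem1, Jag2 and Wnt3 had none, and only Dkk1, with 8 peaks, had more than 1 intergenic peak that could have counted.

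The lists of other cell types were smaller and their intervals wide. Ectoderm genes had a shared peak in 4 of 12 (Tfap2c with 3, Epcam and Tfap2a with 2, Grhl2 with 1), endothelial genes in 4 of 11 (Cdh5 with 6, Sox17 with 2, Emcn and Sox18 with 1) and blood genes in 5 of 9 (among them Ptprc and Runx1 with 4, Spi1 and Tal1 with 1). Muscle precursor genes had one in 4 of 8 (among them Lbx1 with 2, Myf5 and Myod1 with 1), nerve and glia genes in 3 of 8 (among them Foxd3 with 4 and Ngfr with 1) and cartilage genes in 4 of 8 (Matn1 with 3, Acan, Col9a1 and Sox5 with 1). Regulators of other organs had one in 13 of 24, at 9.46 per Mb, among them Foxa2 with 6, Sox2 with 4 and Ptf1a with 3. The Foxa2 peaks were weak, with a median E10.5 percentile of 43. Broadly expressed genes had one in 9 of 23, among them Actb with 3, at 32.3 per Mb. Blood genes stood at 17.4 per Mb, so densities above those of the limb lists were found outside them. With any shared peak within 100 kb of the start counted, whatever gene was nearest, 83.3% of ectoderm genes, 83.3% of regulators of other organs and 100% of blood genes had one, against 88.9% of limb factors and 78.8% of limb signalling genes. The remaining lists lay below both limb lists, with 69.6% of broadly expressed genes and 45.5% of endothelial genes. Muscle precursor, nerve and glia, and cartilage genes each gave 62.5%. Over all autosomal protein-coding genes the share counted in this way was 49.5%.

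Among gene families told by symbol, Fox genes had a shared intergenic peak in 22 of 41, Sox genes in 12 of 18 and Tbx genes in 7 of 12. Hox genes, which stand close together in clusters, had one in 6 of 39, although 33 of 39 had one within 100 kb. By that count the share over all genes was 49.5%, and a single peak can count for several clustered genes. Olfactory receptor genes had one in 40 of 1098 (3.64%, 2.69 to 4.92%), at 2.01 per Mb, and vomeronasal receptor genes in 20 of 349, at 1.8 per Mb. Of the few intergenic peaks near these receptor genes a large share had a counterpart, 43.1% (34.7 to 51.9%) of 123 and 58.9% (45.9 to 70.8%) of 56, above the 24.4% over all genes. Some of these shared peaks lay on tRNA genes, among them peaks nearest to Olfr750, Olfr1423 and Vmn1r223. How far such peaks account for the shares was not tested.

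Of the 10 genes with the most shared intergenic peaks, Dusp6 alone was on a limb list. Atg7 had 39 of 42, all upstream, over 0.122 Mb. With those nearest to Hrh1, a histamine receptor gene, they formed a run of 51 peaks over 145 kb of chromosome 6 (chr6:114492778-114637726) at median percentiles of 94 and 69.5. The 39 peaks of Atg7 had E10.5 signals of 2867 to 27923 and E11.5 signals of 362 to 2571, with median percentiles of 93.8 and 68.9. Gas8 with 22 and Rhou with 20 flank the 5S array, and 37 of those peaks touch its genes.

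A run near Pdia4 was ranked the other way. It held 19 peaks over 50.1 kb of chromosome 6, of which 16 were nearest to Pdia4, and stood at median percentiles of 73.2 at E10.5 and 99.8 at E11.5. Single E11.5 peaks with signals up to 14366 spanned several E10.5 peaks here, so the pairs are not independent. The Y RNA genes Rny1 (820 and 415) and Rny3 (1204 and 371) lay in the weaker part of the run. Gm15319 on chromosome 8, with 27 of 27, was similar, at 43.4 and 86.2 and a low signal per bp at E10.5 (0.923). Runs near the Speer4 genes and Gm10354 on chromosome 5 and Gm21119 on chromosome 8 also stood higher at E11.5. These genes belong to multicopy families, so the values of single copies are uncertain.

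The remaining genes of the 10 with the most, Hes1, Haao, Lrig3 and Foxd2, had 13 to 16 each. Hes1, a Notch target, had 14 of 64, of which the strongest lay 170 kb upstream (11502 and 2729) and one 3.96 kb downstream kept the highest E11.5 signal (10804 and 3755). Haao, an enzyme gene of tryptophan breakdown, had 16 of 36, all upstream, with one over an isoleucine tRNA gene (9007 and 3897) ranked highest at E11.5. Lrig3, a receptor regulator, had 14 of 39 (strongest 10560 and 2933). Foxd2, a forkhead gene, had 13 of 33, of which 12 lay in the lncRNA gene Gm33655 (strongest 8460 and 2225).

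The imprinted H19 locus held a compact run. Nearest to Mrpl23 there were 7 shared peaks, 6 of them within 37.1 kb. The peak at chr7:142568760-142575815, which touches the H19 gene, was 7056 bp wide, with an E10.5 signal of 25060 and an E11.5 signal of 446. Those over the lncRNA Nctc1 had 19066 and 2451, and 12248 and 1547. The 5 strongest were at or above percentile 96.3 at E10.5 and between 35.1 and 76.8 at E11.5.

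Such runs were exceptional. With peaks joined across gaps of up to 12.5 kb there were 6541 groups, of which 5348 were a single peak (64% of the peaks), and 51 groups had 5 or more. The median distance to the next shared intergenic peak was 26.9 kb. Mef2c, a muscle and neural gene, had a group of 9 far downstream, 211 to 241 kb from its start, partly in the lncRNA C130071C03Rik. Its strongest peak had 6345 and 4703.

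All autosomes contributed. The share of intergenic peaks near genes with a counterpart was between 19.1% (16.6 to 21.9%) on chromosome 19 and 28.4% (26.5 to 30.4%) on chromosome 6, and the median E11.5 percentile was between 33.2 on chromosome 15 and 44 on chromosome 8. Chromosomes 6 and 8 hold the Atg7, Pdia4, 5S and Gm15319 runs, and whether these runs account for the values was not tested.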

How the data were processed

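ATAC-seq data of 4 limb samples entered 2 deposited peak lists in narrowPeak format on mm10, 1 per stage, each joining 2 replicates, so groups follow the sample titles. The submitters' processing notes name cutadapt, Bowtie2, SAMtools, deepTools and Genrich without versions or settings, and any shift of read ends for Tn5 is not given in the sources used here. The authors set for each peak a signal value, which behaves as a total over the peak, a −log10 p-value and a score. The deposited score was used no further. Depth is unknown.

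Gene positions came from RefSeq (GRCm38.p6). A strand was found for 20364 of 20665 autosomal protein-coding genes (98.5%), 16457 from RefSeq sequence tables and 3907 from GENCODE M1 by symbol. Where both gave one, 99.7% were the same. A start site is the outer end by strand, and distance runs from the nearest edge of the peak. Python 3.11.15, pandas 2.3.3, numpy 2.4.6 and scipy 1.17.1 were used, and placement was tested on simulated intervals. No test between stages was made.

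The peaks and gene lists were chosen with earlier results of these data known. Peaks named are the 10 strongest at E10.5, the 5 highest in both lists, the 5 with the largest percentile difference each way, those next to the limits, the widest and narrowest, the 10 genes with the most peaks, and in each gene list the 5 genes with the most, of which some are not reported here. Other named peaks, at H19, Mef2c, Eapp and the short RNA genes, were picked after their values were seen. Motifs were sought only in lncRNA promoter windows.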

Additional observations from a re-analysis of the deposited data

Results flagged for a closer look

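The choice of peaks covered the autosomes only. Of 569 E10.5 peaks on the X chromosome that met the same limits of position, 177 overlapped an E11.5 peak, which is 31.1% (95% Wilson interval 27.4 to 35%). These peaks lie outside those described above and are given as a value only. The autosomal share was 24.4%.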

How the results depend on the processing

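No paired analysis was possible because the replicates of a stage are merged in its list, which also keeps a replicate from being left out. Of 151 values of 12 results under 16 settings, 82 stayed inside the counting interval of the reported value (or within 1.5 times of a count) and 69 moved, and the cause was not tested. Added after the data were seen were 3 settings (every RefSeq start site, omission of short RNA genes with the top 1% of signal per bp, and percentiles among shared peaks).

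In order, the values are the number of shared intergenic peaks, the share of intergenic peaks shared, median distance, share upstream, median E10.5 and E11.5 widths, median E10.5 and E11.5 percentiles, the share of peaks on tRNA, rRNA or snRNA genes that were shared, and the shares of all genes, limb transcription factors and limb signalling genes with a shared peak. A 50% reciprocal overlap gave 4045, 11.8%, 40.7 kb, widths of 762 and 568 bp, percentiles of 71.3 and 49.2, 60.1%, 13.5%, 47.2% and 57.6%. Summits within 100 bp gave a share of 20.8%, widths of 896 and 397 bp, percentiles of 74 and 36.2, 61.5% on short RNA genes and 20.7% of genes. A −log10 p of at least 5 in both lists gave 3173, 17.5%, 35.6 kb, 62.4% upstream, 1188 and 683 bp, 83.9 and 60.5, 69.7%, 11.1%, 44.4% and 48.5%. With the E10.5 list cut to the number of E11.5 peaks by signal the share was 57.3%, with widths of 1160 and 505 bp. The percentiles were 81.4 and 45.1, with 98.8% on short RNA genes and 17% of genes. For this cut and for the −log10 p limit, the percentiles were those of the full autosomal lists, not taken anew after the cut. The values 81.4 and 45.1 therefore do not compare ranks in lists of equal length.

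An upper limit of 100 kb gave a share of 25.2%, a distance of 25.2 kb, 67.3% upstream and 20.1% of genes. One of 500 kb gave 47 kb, 62.2% upstream and 23.1% of genes, and a lower limit of 2 kb gave 39.7 kb and 21.8% of genes. Bodies and starts of all genes, non-coding included, gave 22.9%, 22.7 kb, 62.3% upstream, 864 and 407 bp, 73.4 and 35.1, 11.4% of genes, 47.2% of the factors and 42.4% of the signalling genes. Ranking by signal per bp gave percentiles of 76.5 and 40.3, ranking by −log10 p gave 77.8 and 38.9, and ranking among shared peaks gave 34.8 and 33.3. Every RefSeq start site gave 62.2% upstream. Omission of short RNA genes and the top 1% of signal per bp gave 23.6%, an E11.5 width of 421 bp, an E11.5 percentile of 36.4 and 21.8% of genes. Any start within 100 kb gave 49.5% of all genes and 88.9% of the limb factors. Depth limits all of these, since it sets how many peaks a caller reports, and it is unknown.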
